A study of Mus musculus with 36 samples.

Results

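The mature miRNAs mmu-miR-375-3p, mmu-miR-7a-5p, mmu-miR-7b-5p, mmu-miR-202-5p and mmu-miR-202-3p (below without the prefix) were followed through 36 small RNA-seq libraries of whole mouse kidney. They are the 5 members chosen by name from 1915 mature miRNAs in the count table, because each is best known from endocrine, neuroendocrine or gonadal tissue. All mice were C57BL/6 and carried floxed alleles of Pkd1 (Pkd1f/f) or of Pkd2 (Pkd2f/f), the genes for polycystin-1 and polycystin-2, whose loss gives rise to renal cysts. The KO mice carried HoxB7-Cre in addition, and the age-matched floxed littermates without Cre are called WT. Each model was sampled at postnatal day 1 (P1), day 3 (P3) and day 7 (P7), which gives 12 groups of 3 libraries. HoxB7-Cre is active in the collecting ducts and the rest of the ureteric bud derivatives, so the kidney cells outside that lineage kept their polycystin genes in every group. The labels do not state that the 3 libraries of a group came from separate animals, so the p-values below measure the spread between libraries, which may be technical. Transcripts of Pkd1 and Pkd2 are not measured by this assay, and the deletion could not be checked in these libraries.

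A miRNA is cut from a hairpin, and the arm that is loaded into Argonaute pairs through its seed, bases 2 to 8, with target mRNAs. miR-375 is abundant in the endocrine cells of the pancreatic islet, where it restrains insulin secretion, and in the pituitary. miR-7 is likewise enriched in islet and neuroendocrine cells and in brain, where the circular RNA Cdr1as carries many sites for it. miR-202 is best known from testis and ovary, and its 3p arm resembles the let-7 family in its seed. None of these miRNAs is a classical marker of renal tubule cells.

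The mature sequences below, from RefSeq on build GRCm38.p6, show which of the members can be told apart by their reads and which share a seed. Of the 5 members, 4 were in that table. Sequences are written 5′ to 3′ with the seed in capitals.
miR-7a-5p: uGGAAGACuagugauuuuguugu
miR-7b-5p: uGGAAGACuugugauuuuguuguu
miR-202-5p: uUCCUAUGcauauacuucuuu
miR-202-3p: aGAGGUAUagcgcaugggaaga
let-7a-5p: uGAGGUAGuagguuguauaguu
Counted from 1 at the 5′ end of miR-7a-5p, miR-7b-5p differed over the 23 shared bases by the single substitution A10U, outside the seed. The miR-7 seed was shared by no other mature miRNA of the table. miR-202-3p shared bases 2 to 7 with let-7a-5p and differed from it at base 8 (G8U). Those 6 bases were carried by 12 other miRNAs, and let-7j alone also matched at base 8. The seed of miR-202-5p occurred in no other mature miRNA.

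The hairpins lie at 5 separate loci. Mir375 is at chr1:74900658-74900721 on the minus strand, overlaps no other annotated gene and lies 1350 bases from Cfap65. Mir7-1 is at chr13:58392779-58392886 on the minus strand, in an intron of Hnrnpk on the same strand. Hnrnpk encodes a widely expressed RNA-binding protein. Mir7-2, at chr7:78888277-78888373 on the plus strand, and Mir7b, at chr17:56242988-56243098 on the plus strand, overlap no other annotated gene. Mir202 is at chr7:139957689-139957760 on the minus strand, within an exon of the long non-coding RNA gene Gm2044 and, on the opposite strand, in an intron of Gm16201. The 2 mir-7a hairpins give the same 5p arm, so miR-7a-5p reads cannot be assigned to Mir7-1 or Mir7-2, and the count table listed nearly the same reads under both. Their 3p arms differ, and with the 6 positions that vary between the 3 hairpins in capitals they read as follows.
miR-7a-1-3p: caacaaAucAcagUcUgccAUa
miR-7a-2-3p: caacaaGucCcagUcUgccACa
miR-7b-3p: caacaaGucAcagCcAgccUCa
Hence the 3p arms, unlike miR-7a-5p, report on one hairpin each.

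Library totals ran from 12569939 to 32663566 miRNA reads with a median of 24008082, and 31.4% to 81.0% of the reads in a library were miR-10a-5p or miR-10b-5p. Levels are given as CPM (reads per 1000000) after scaling by TMM factors, a scaling set by the bulk of the miRNAs, over all 36 libraries. The factors ran from 0.395 to 2.41, so that 3 counts, taken as the floor of detection, correspond to 0.0593 to 0.471 CPM. Such floors and the intervals on shares cover counting error only. The kidney markers fixed for this work (miR-10a-5p, miR-10b-5p, miR-192-5p, miR-194-5p, miR-204-5p and miR-196a-5p) and the epithelial miR-200 group had reads in every library. Markers of other tissues stood out in some libraries. The summed skeletal muscle markers (miR-1a-3p, miR-133a-3p and miR-206-3p) reached 1525 CPM in Pkd1 P1 WT library 1 against a median of 31.9 over all libraries. The liver markers miR-122-5p and miR-122-3p summed to 289 CPM in Pkd2 P1 WT library 3 against a median of 8.96. The markers of stratified or urothelial epithelium, miR-205-5p and miR-31-5p, summed to 1193 CPM in Pkd2 P7 KO library 3 and to 707 CPM in library 1 of that group. Their median over all libraries was 201.

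The 5 members differed widely in abundance and in how evenly they were spread over the libraries. The most abundant, mmu-miR-375-3p, had 87565 reads in all, with 15.9 to 469 CPM per library. The level of mmu-miR-7a-5p, with 8066 reads, was 3.22 to 41.9 CPM. Both were read in all 36 libraries. In contrast, mmu-miR-202-5p had 2332 reads and mmu-miR-7b-5p had 703, and each was at or near 0 in most libraries. In all, 6 libraries held more than 10 miR-202-5p reads, and these 6 held 98.5% of all its reads: Pkd1 P1 WT 1 with 797, Pkd1 P3 KO 2 and KO 3 with 102 and 1141, Pkd1 P7 WT 2 and WT 3 with 50 and 52, and Pkd2 P1 KO 1 with 155. None of the other 30 libraries had more than 6. miR-7b-5p reached 10 reads in 9 libraries, which held 95.02% of its reads, and had at most 5 reads in the other 27. All of the 6 miR-202-5p libraries were among these 9, that is 100% of the first set and 66.7% of the second. The further 3 were Pkd1 P1 KO 1, Pkd2 P1 WT 3 and Pkd2 P7 KO 3. The libraries in which these miRNAs were read therefore lay in WT and KO groups, in both models, and within a group they stood beside libraries with almost none.

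**Figure D1:**
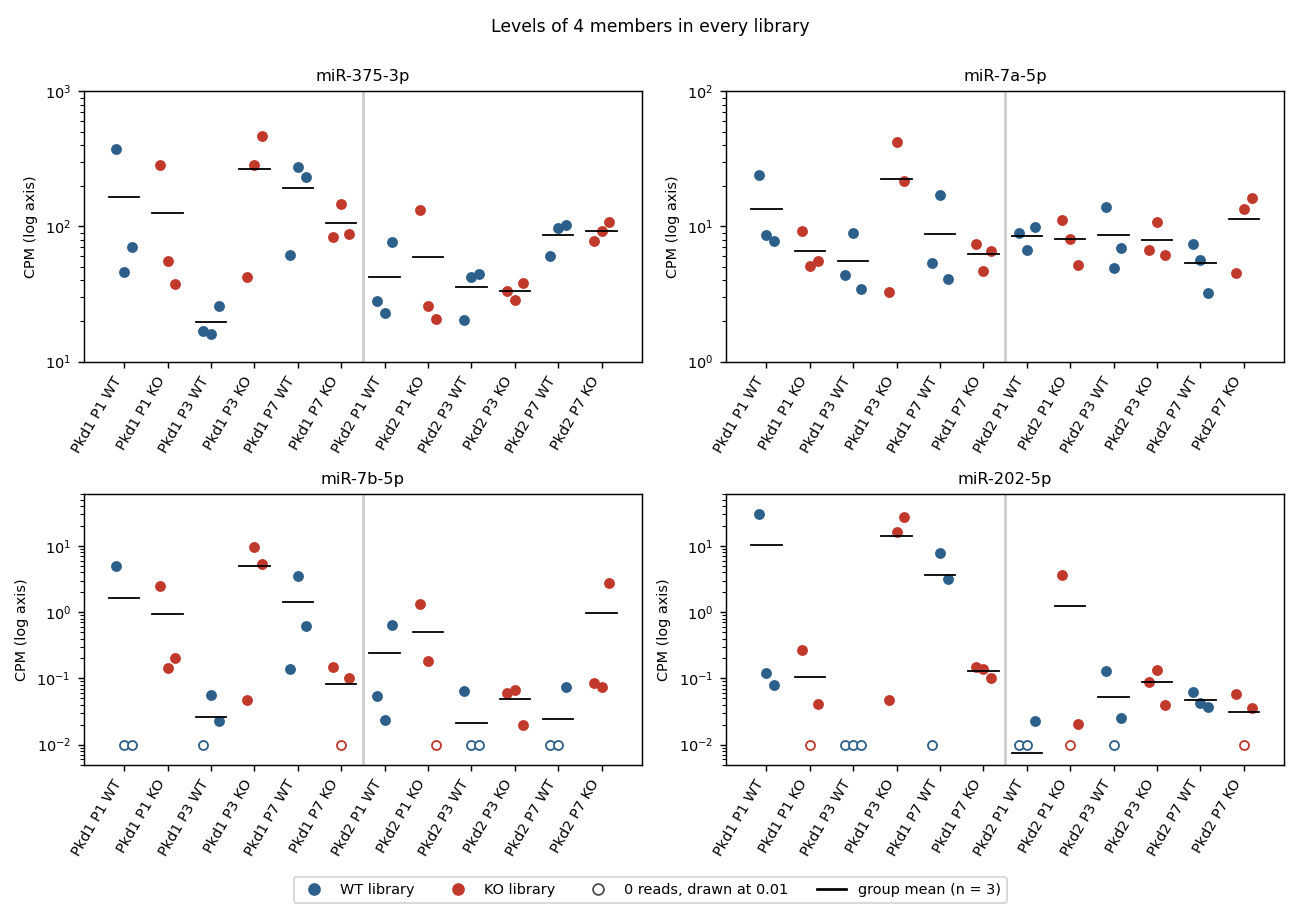
CPM of miR-375-3p, miR-7a-5p, miR-7b-5p and miR-202-5p in each library (log axes, with a scale of its own in each panel for the upper row), WT in blue, KO in red, open circles for 0 reads and a line at the mean of each group of 3. The highest miR-202-5p library, Pkd1 P1 WT 1 at 30.3 CPM, shares its group with libraries at 0.121 and 0.0805 CPM.

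The same libraries led for miR-375-3p. The 6 highest of 36 by miR-375-3p level were Pkd1 P3 KO 3, Pkd1 P1 WT 1, Pkd1 P3 KO 2, Pkd1 P1 KO 1, Pkd1 P7 WT 2 and Pkd1 P7 WT 3, with 469, 376, 287, 283, 278 and 234 CPM. Of these, 5 were miR-202-5p libraries, and Pkd1 P1 KO 1, with 6 miR-202-5p reads, had 54 miR-7b-5p reads. The sixth miR-202-5p library, Pkd2 P1 KO 1, was the eighth by miR-375-3p with 132.1 CPM. Over the 36 libraries, Spearman's rho of miR-375-3p was 0.63 with miR-202-5p, 0.55 with miR-7b-5p and 0.31 with miR-7a-5p on the log2 CPM scale, and Pearson's r was 0.78, 0.77 and 0.47. These values are descriptions over libraries of 12 groups, with many miR-202-5p and miR-7b-5p values at or under the floor.

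**Figure D2:**
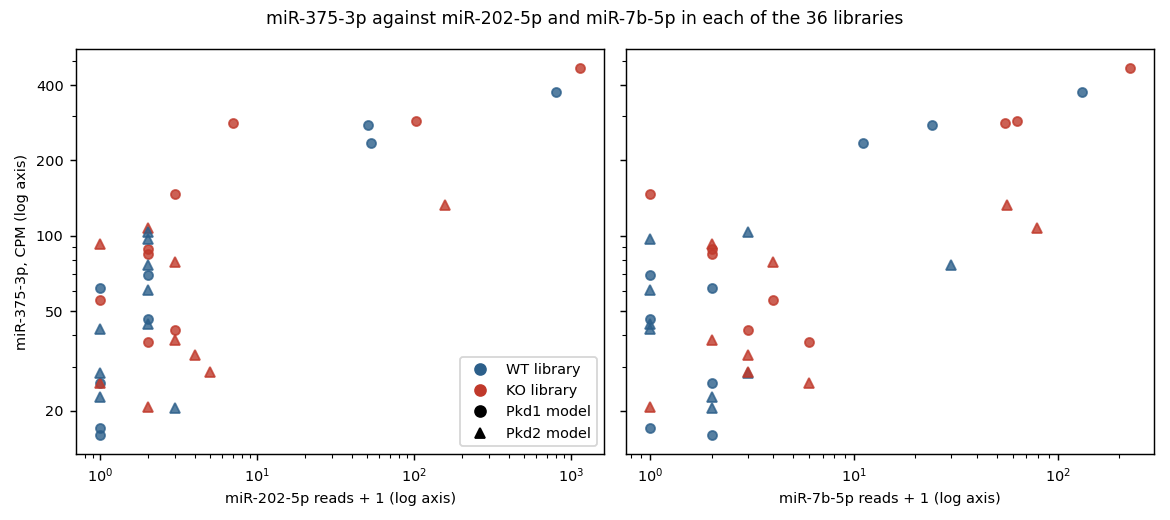
Each of the 36 libraries by miR-375-3p CPM against reads plus 1 of miR-202-5p (left) and of miR-7b-5p (right), on log axes, blue for WT, red for KO, circles for the Pkd1 model and triangles for the Pkd2 model. The libraries with most miR-202-5p reads, 797 and 1141, are those with the most miR-375-3p, 376 and 469 CPM.

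miR-375-3p did not differ between KO and WT past an adjusted p of 0.05 (edgeR quasi-likelihood test, Benjamini-Hochberg adjustment over all miRNAs tested) at any age in either model. In the Pkd1 model at P1, the WT libraries had 376, 46.3 and 69.9 CPM and the KO libraries 283, 55.3 and 37.5 CPM. One library of each group was high, and the groups overlapped. The fitted log2 fold change of KO over WT was -0.29 (SE 0.90, 95% interval -2.20 to 1.62, adjusted p = 0.875). Without the high WT library it was 1.18. At P3, the WT libraries had 16.97, 15.9 and 25.7 CPM and the KO libraries 41.9, 287 and 469 CPM. The 3 KO libraries all lay above the 3 WT libraries, but KO 1 was close to WT and the other two were far above it. The log2 fold change was 3.76 (SE 1.00, 95% interval 1.63 to 5.89), with an unadjusted p of 0.00185 and an adjusted p of 0.218 by edgeR. DESeq2 gave 3.73 with an adjusted p of 0.0027, and without KO 1 edgeR gave 4.26 with an adjusted p of 0.0473. At P7 the order of the means was turned, with 61.8, 278 and 234 CPM in WT and 84.3, 146 and 88.7 CPM in KO. These ranges overlapped, and the log2 fold change was -0.77 (SE 0.90, 95% interval -2.69 to 1.15, adjusted p = 0.893 by edgeR).

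In the Pkd2 model miR-375-3p ranged from 20.4 to 132.1 CPM over the libraries, against 15.9 to 469 CPM in the Pkd1 model. At P1 the WT libraries had 28.3, 22.7 and 76.2 CPM and the KO libraries 132.1, 25.7 and 20.8 CPM, so that one library of each group again stood high. The log2 fold change was 0.54 (SE 0.57, 95% interval -0.68 to 1.76) and turned to -0.83 without KO 1. At P3 the values were 20.4, 42.3 and 44.4 CPM in WT and 33.4, 28.5 and 38.1 CPM in KO. The KO range lay within the WT range, and the log2 fold change was -0.12 (95% interval -1.34 to 1.10). At P7 the WT libraries had 60.6, 96.7 and 103 CPM and the KO libraries 78.2, 93.0 and 107 CPM. The ranges coincided for the most part, and the log2 fold change was 0.16 (SE 0.57, 95% interval -1.05 to 1.38, adjusted p = 0.885 by edgeR). Across ages in WT, miR-375-3p was 0.95 higher at P7 than at P1 on the log2 scale in the Pkd2 model (SE 0.58, 95% interval -0.27 to 2.18, adjusted p = 0.238) and 0.29 higher in the Pkd1 model (SE 0.90, 95% interval -1.62 to 2.20, adjusted p = 0.859), neither past the threshold. When the 12 groups were ordered by mean miR-375-3p, from 266 ± 214 CPM (SD, n = 3) in Pkd1 P3 KO to 19.5 ± 5.38 CPM in Pkd1 P3 WT, 10 of the 11 neighbouring pairs overlapped. The exception was the last pair, Pkd2 P3 KO over Pkd1 P3 WT.

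**Figure D3:**
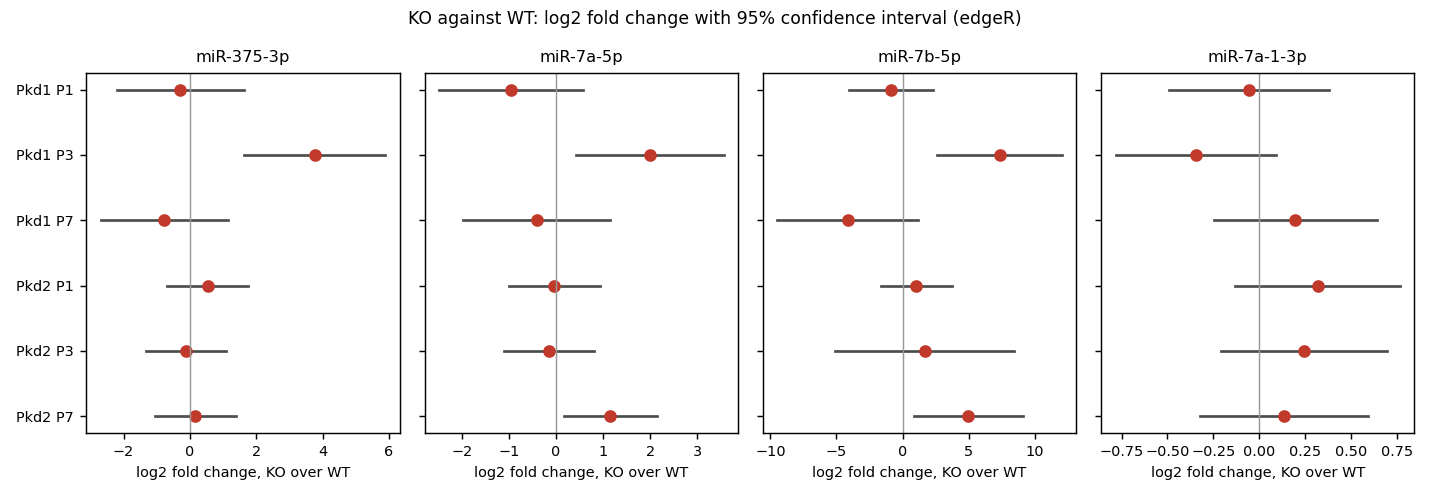
Fitted log2 fold change of KO over WT (points) with 95% confidence intervals (lines) for miR-375-3p, miR-7a-5p, miR-7b-5p and the 3p arm miR-7a-1-3p in each model and age, each panel with its own horizontal scale. The intervals of the first 3 lie above 0 in the Pkd1 model at P3, where miR-375-3p had 3.76, and those of miR-7a-5p and miR-7b-5p also in the Pkd2 model at P7, and none of these passed the adjusted threshold.

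miR-7a-5p had the most reads of the mir-7 arms over the 36 libraries, 8066 against 5687 of miR-7a-1-3p. It had fewer reads than miR-7a-1-3p in some libraries, and was at a few CPM in most. In the Pkd1 model at P1 it was at 23.9, 8.72 and 7.81 CPM in WT and 9.29, 5.09 and 5.53 CPM in KO. WT library 1 stood above all others, and the log2 fold change was -0.95 (SE 0.72, adjusted p = 0.650 by edgeR). At P3 it was at 4.40, 8.88 and 3.42 CPM in WT and 3.30, 41.9 and 21.8 CPM in KO. The lowest of these 6 values and the 2 highest were all KO libraries. The log2 fold change was 1.98 (SE 0.74, 95% interval 0.41 to 3.55, unadjusted p = 0.0166, adjusted p = 0.464 by edgeR). At P7 the values were 5.36, 17.05 and 4.08 CPM in WT and 7.37, 4.70 and 6.55 CPM in KO, which overlapped (log2 fold change -0.41, SE 0.74, adjusted p = 0.925 by edgeR).

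In the Pkd2 model miR-7a-5p was at 9.02, 6.66 and 9.99 CPM in WT and 11.2, 8.07 and 5.17 CPM in KO at P1. At P3 it was at 14.0, 4.96 and 6.93 CPM in WT and 6.67, 10.9 and 6.15 CPM in KO. Both comparisons overlapped, with log2 fold changes of -0.03 (SE 0.45) and -0.15 (SE 0.45). At P7 the WT libraries had 7.38, 5.61 and 3.22 CPM and the KO libraries 4.53, 13.6 and 16.2 CPM. The other 2 KO libraries, KO 2 and KO 3, were above all WT libraries and KO 1 was within their range. The log2 fold change was 1.15 (SE 0.46, 95% interval 0.16 to 2.13, unadjusted p = 0.0254, adjusted p = 0.109 by edgeR), in a comparison in which 29% of all miRNAs had an unadjusted p under the threshold. Without KO 1, the low library, it was 1.53 with an adjusted p of 0.0284. In WT of this model miR-7a-5p was 0.75 lower at P7 than at P1 on the log2 scale (SE 0.46, adjusted p = 0.244), a difference that became -1.54 with an adjusted p of 0.0062 when libraries were scaled by their totals alone. That scaling shifted the median of all miRNAs to -0.78 in this comparison, from -0.06. Ordered by mean miR-7a-5p from Pkd1 P3 KO (22.3 ± 19.3 CPM) down to Pkd2 P7 WT (5.40 ± 2.09 CPM), all 11 neighbouring groups overlapped.

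The 3p arms show the hairpins one by one. miR-7a-1-3p, from the hairpin in the Hnrnpk intron, was even, with 3.92 to 9.55 CPM over all 36 libraries, and its log2 fold change of KO over WT ran from -0.35 (SE 0.21, Pkd1 P3, adjusted p = 0.658) to 0.32 (SE 0.21, Pkd2 P1, adjusted p = 0.972). miR-7a-2-3p, from the intergenic hairpin on chromosome 7, had 166 reads in all and passed the floor of 3 in 11 libraries. Its highest counts were 38 in Pkd1 P3 KO 3, 37 in Pkd1 P1 WT 1, 19 in Pkd2 P1 KO 1 and 12 in Pkd1 P1 KO 1, all of them libraries with at least 10 miR-7b-5p reads. In the Pkd1 model at P3 its counts were 4, 1 and 3 in WT and 1, 6 and 38 in KO. The log2 fold change there was 2.55 (SE 1.16, unadjusted p = 0.0440, adjusted p = 0.515 by edgeR), against -0.35 for miR-7a-1-3p in the same libraries. miR-7a-5p had 0.605 to 9.54 reads per miR-7a-1-3p read, with a median of 1.13, and the highest ratios, 9.54, 4.90, 3.34 and 3.18, were those of Pkd1 P3 KO 2, Pkd1 P3 KO 3, Pkd1 P1 WT 1 and Pkd2 P7 KO 3. In the first 2 of these, miR-7a-1-3p itself was at 4.39 and 4.44 CPM, within the 4.37 to 7.17 CPM of the WT libraries of that age.

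miR-7b-5p has a hairpin of its own on chromosome 17 and is told from miR-7a-5p by a single base. The number of mismatches allowed in the authors' mapping is not given in the sources used here. In 9 libraries no miR-7b-5p read was listed beside 69 to 274 miR-7a-5p reads. In the Pkd1 model, miR-7b-5p had 131, 0 and 0 reads in WT and 54, 3 and 5 in KO at P1. At P3 it had 0, 1 and 1 reads in WT and 2, 62 and 226 in KO. At P7 it had 1, 23 and 10 reads in WT and 1, 0 and 1 in KO. The high libraries were thus WT 1 and KO 1 at P1, 2 KO libraries at P3 and 2 WT libraries at P7. At P3 the pooled reads, 290 against 2, gave a 143-fold higher level in KO (95% counting interval 39.2 to 1185), but KO 1 with 2 reads was at the level of WT, and the test across libraries gave an unadjusted p of 0.00452 and an adjusted p of 0.354 (edgeR). In the Pkd2 model the reads were 2, 1 and 29 in WT and 55, 5 and 0 in KO at P1, at most 1 in WT and at most 2 in KO at P3, and 0, 0 and 2 in WT and 3, 1 and 78 in KO at P7. At P7 one KO library held 78 of the 82 KO reads. The unadjusted p there was 0.0210 and the adjusted p 0.0969 (edgeR), the lowest adjusted p of any member in any comparison. No overlap between the scaled values of KO and WT at P7 rested on 1 KO read against at most 2 WT reads, below the floor, and 14.3% of all miRNAs tested were higher in KO without overlap in that comparison.

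The share of miR-7b-5p among miR-7a-5p plus miR-7b-5p reads ran from 0% to 20.9% of a library. It was 20.9% in Pkd1 P1 KO 1 (95% Wilson interval 16.4 to 26.3), 19.7% in Pkd1 P3 KO 3 (17.5 to 22.1), 18.8% in Pkd1 P3 KO 2 (15.0 to 23.4), 17.3% in Pkd1 P7 WT 2 (11.8 to 24.6) and 17.3% in Pkd1 P1 WT 1 (14.7 to 20.1). The 5 highest shares overlapped in their intervals, although the libraries came from 4 groups. Between KO and WT the mean share at P3 of the Pkd1 model was 13.3% ± 10.3 (SD, n = 3) against 0.431% ± 0.374, and at P7 1.17% ± 1.03 against 10.98% ± 7.63. Both differences had an exact two-sided permutation p of 0.1, the smallest that 3 against 3 libraries allow, and 0.3 after adjustment over the 6 comparisons. The other 4 comparisons had exact permutation p-values from 0.2 to 0.7.

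**Figure D4:**
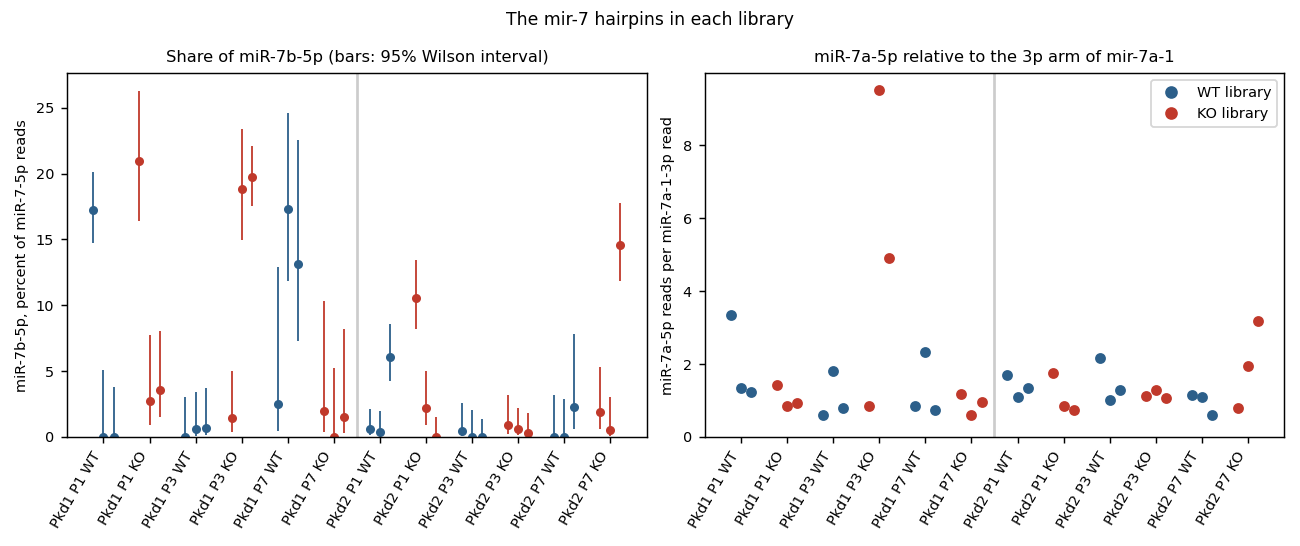
Left, the percentage of miR-7b-5p among miR-7a-5p plus miR-7b-5p reads in each library with 95% Wilson intervals, and right, miR-7a-5p reads per miR-7a-1-3p read, WT in blue and KO in red. The libraries near 20% in the left panel include Pkd1 P3 KO 2 and KO 3, which also have the highest ratios on the right, 9.54 and 4.90.

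miR-202-5p passed 10 reads in 1 library of the Pkd2 model and was uneven in the Pkd1 model. In the Pkd1 model its CPM was 30.3, 0.121 and 0.0805 in WT and 0.273, 0 and 0.0407 in KO at P1. One WT library had nearly all of the reads. The log2 fold change of KO over WT was -6.47 (SE 2.32, unadjusted p = 0.0152, adjusted p = 0.440 by edgeR) and 0.13 without that library. At P3 no WT library had a read and the KO libraries had 0.0475, 16.0 and 27.0 CPM. The pooled KO level was at least 409-fold higher than the level that 3 counts over the WT group would give, with 2 KO libraries far above the floor and 1 below it. Here edgeR gave an unadjusted p of 0.00387 and an adjusted p of 0.341, and DESeq2 an adjusted p of 0.0027. At P7 the WT libraries had 0, 7.75 and 3.22 CPM and the KO libraries 0.147, 0.136 and 0.102 CPM. The KO libraries lay between one WT library and the other two (unadjusted p = 0.0863, adjusted p = 0.567 by edgeR). In the Pkd2 model the reads were 0, 0 and 1 in WT and 155, 0 and 1 in KO at P1, and no other library of that model exceeded 4 reads, so miR-202-5p was not tested there.

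miR-202-3p, the arm with the let-7-like seed, had 84 reads in all and was tested in neither model. Of these, 82 lay in the 6 libraries with miR-202-5p, 55 of them in Pkd1 P3 KO 3, 17 in Pkd1 P1 WT 1 and 8 in Pkd1 P3 KO 2. In the 6 libraries with at least 10 reads of both arms together, miR-202-5p made up 92.7% (95% Wilson interval 86.3 to 96.3, Pkd1 P3 KO 2) to 100% (92.9 to 100, Pkd1 P7 WT 2) of the miR-202 reads. In those 6 libraries the 5p arm was thus the main arm. For comparison of the pool that carries the same 6 seed bases, the let-7 family summed to 17411 to 37876 CPM per library, against at most 1.30 CPM of miR-202-3p.

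The Pkd1 model at P3 was the comparison in which all 4 tested members were higher in KO with an unadjusted p under 0.05. None passed the adjusted threshold in edgeR, as none of the 706 miRNAs tested did (0%), and 2 passed it in DESeq2. An unadjusted p under 0.05 was reached by 9.07% of the miRNAs tested, and by 7.08% with KO higher. The groups of 2 of the 4, miR-375-3p and miR-202-5p, did not overlap, against 6.66% of all miRNAs tested that were higher without overlap. For miR-202-5p this rested on 2 reads in KO 1 against 0 in each WT library, below the floor. The median log2 fold change was 5.56 over the 4 members and 0.02 over all miRNAs tested. The fold changes were 3.76 for miR-375-3p, 1.98 for miR-7a-5p, 7.36 for miR-7b-5p and 11.1 for miR-202-5p. The last 2 were fitted against WT libraries with at most 1 read each, so their size, and with it the median, is not well measured. Every one of these differences rested on KO 2 and KO 3, whereas KO 1 was within or near the WT range for each member. The 6 miR-202-5p libraries were then left out over the series, a choice made after these values were seen, which left KO 1 alone in KO. miR-375-3p was 1.02 higher and miR-7a-5p 0.81 lower there than in WT on the log2 scale. miR-7b-5p and miR-202-5p no longer passed the filter on low counts. Since the libraries were picked by the reads of a member, the loss of miR-202-5p follows from the choice. No conclusion is drawn from these values.

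Markers of other tissues in the 6 libraries of the Pkd1 model at P3 were as follows. The 3 skeletal muscle markers summed to 51.4, 19.5 and 18.6 CPM in WT and 32.3, 91.1 and 75.8 CPM in KO, and the 2 liver markers to 2.38, 14.6 and 1.04 CPM in WT and 7.58, 13.2 and 25.2 CPM in KO. The 4 erythroid markers (miR-144-3p, miR-144-5p, miR-451a and miR-486a-5p) summed to 1399, 1541 and 1567 CPM in WT and 1598, 4727 and 3319 CPM in KO. The muscle and erythroid sums were highest in KO 2 and KO 3, the libraries in which the members were high, and the liver sum was highest in KO 3, with KO 2 below WT 2. The 8 neural markers summed to 661, 549 and 647 CPM in WT and 699, 578 and 732.5 CPM in KO. Most of that sum was miR-218-5p and miR-9-5p, with medians of 421 and 232 CPM over the 36 libraries. Those 2 and miR-9-3p were highest in Pkd1 P7 KO 2, a library with no miR-7b-5p read. miR-124-3p, the most specific marker (2.96 CPM, median 0.221), and miR-129-5p were highest in Pkd1 P1 KO 1. miR-137-3p (4.60 CPM, median 0.271) and miR-128-3p were highest in Pkd1 P1 WT 1. miR-138-5p (101 CPM, median 18.3) was highest in Pkd2 P7 KO 3. The islet and neuroendocrine companions (miR-184-3p, miR-153-3p, miR-132-3p, miR-212-3p and miR-212-5p) summed to 72.7, 59.3 and 72.0 CPM in WT and 64.6, 59.0 and 61.9 CPM in KO, with KO 2 and KO 3 within or near the WT range. Most of that sum was miR-132-3p, at 41.9 and 40.4 CPM in KO 2 and KO 3 against 43.8 to 54.2 CPM in WT. In the same libraries miR-212-3p was at 7.21 and 8.61 CPM against 6.16 to 9.80 CPM in WT. miR-212-5p was at 5.18 and 6.15 CPM against 5.96 to 8.20 CPM, and miR-184-3p at 0.471 and 1.16 CPM against 0.666 to 0.902 CPM. miR-153-3p, a neuroendocrine and neural miRNA of the list, had 1.88, 1.39 and 1.92 CPM in WT and 1.76, 4.23 and 5.60 CPM in KO. It alone of the companions had both KO 2 and KO 3 above WT, as for the members. Its level in the Pkd1 model was also highest in WT 1 at P1 (3.12 against 0.485 and 0.805 CPM in the other WT libraries) and in WT 2 and WT 3 at P7 (3.87 and 3.77 against 1.65 CPM), within the respective WT group. It ranged from 1.85 to 4.92 CPM in the Pkd2 model, with the highest level in P7 WT 2, a library with no miR-7b-5p read. The 3 pancreatic acinar miRNAs (miR-216a-5p, miR-216b-5p and miR-217-5p) summed to at most 0.863 CPM in any library, at 0 in Pkd1 P3 KO 2. The testis-expressed cluster on the X chromosome summed to 1.15 to 6.18 CPM over all libraries. In the Pkd1 model at P3 it summed to 2.16, 1.88 and 2.25 CPM in KO, each below all 3 WT libraries of that age. In other groups the muscle and erythroid sums followed miR-202-5p only in part. Pkd1 P1 WT 1 had the highest of both in its group, 1525 and 4981 CPM. In Pkd1 P7 WT the muscle sum was 52.6, 35.5 and 48.5 CPM, highest in WT 1. The erythroid sum there was highest in WT 3 and lowest in WT 2. In Pkd2 P1 KO the muscle sum was 29.0, 21.1 and 139 CPM. The erythroid sum there was 1693, 4837 and 1836 CPM, lowest in KO 1. The part of the marker differences in the members' values was not tested.

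In the remaining KO against WT comparisons fewer members stood out. By edgeR, 0 of the 4 tested members were called in the Pkd1 model at P1, with 1 at an unadjusted p under 0.05, and at P7 both counts were 0. Of all miRNAs tested, 0% were called at P1 and 0.425% at P7, and 8.36% and 10.2% had an unadjusted p under 0.05. In the Pkd2 model, 0 of 3 tested members were called at P1, P3 and P7, against 0%, 0% and 12.6% of all miRNAs tested. Members with an unadjusted p under 0.05 numbered 0, 0 and 2, against 5.5%, 1.47% and 29% of all miRNAs tested. DESeq2 called no member in any of these 5 comparisons. At P7 of the Pkd2 model, where miR-7a-5p and miR-7b-5p were the 2, KO 3 was highest for miR-7a-5p, miR-7b-5p and miR-375-3p. The 2 stratified epithelial markers summed there to 154, 85.1 and 92.5 CPM in WT and 707, 211 and 1193 CPM in KO, both passing the test, and the part of this difference in the miR-7 values was not tested.

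The remaining comparisons of the design, age and the differences between effects, called no member either. Between WT at P7 and at P1, edgeR called 0 of 4 tested members in the Pkd1 model and 0 of 3 in the Pkd2 model, against 21.5% and 28.3% of all miRNAs tested, and no member had an unadjusted p under 0.05, against 36.3% and 39.8%. DESeq2 called none. The KO effect at P7 less that at P1 was called for 0 of 4 members in the Pkd1 model (0.142% of all miRNAs) and 0 of 3 in the Pkd2 model (0.536%), with 0 members at an unadjusted p under 0.05 against 12% and 16.9%. At P7, the KO effect in the Pkd1 model less that in the Pkd2 model was called for 0 of 4 members (0.387% of all miRNAs), and 1 had an unadjusted p under 0.05 against 12%. The lowest unadjusted p, 0.0112, was that of miR-7b-5p (adjusted p = 0.328), whose reads were high in 2 WT libraries of one model and in 1 KO library of the other. For miR-375-3p this difference was -0.94 (95% interval -3.25 to 1.37) and for miR-7a-5p -1.58 (95% interval -3.46 to 0.31), intervals that leave room for differences of several fold in level. In all, 39 tests of members were made over the 11 comparisons. None was called by edgeR, 8 had an unadjusted p under 0.05, and 2 were called by DESeq2.

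The miRNAs most like each member over the 36 libraries were sought among 769 others by Spearman's rho. For miR-7a-5p they were miR-541-5p (0.86), miR-543-5p (0.84) and miR-376c-3p (0.79), for miR-7b-5p miR-127-5p (0.71), miR-496a-3p (0.69) and miR-376a-3p (0.68), and for miR-202-5p miR-344-3p (0.55), miR-127-5p (0.55) and miR-329-5p (0.49). For miR-375-3p they were miR-29a-3p (0.70) and the erythroid miR-486a-5p and miR-486b-5p (both 0.61), the latter pair being products of overlapping hairpins with almost identical counts. Of these 12 places, 8 were taken by miRNAs encoded between Dlk1 and Dio3, at chr12:109463336-110279068, an imprinted interval whose miRNAs are made from the maternal chromosome and are abundant in the embryo. The interval holds 11.9% of the 775 miRNAs kept in the fit of all libraries. These are the 3 largest of many coefficients over libraries that share group and age, and are given as descriptions.

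The 117 miRNAs of the interval in the count table, a set examined after these likenesses were seen, summed to 3277 to 44091 CPM per library. The highest sum was that of Pkd1 P1 WT 1, the library with 797 miR-202-5p reads. In the Pkd1 model at P3 the sum was 5484, 5628 and 5155 CPM in WT and 6103, 14760 and 17027 CPM in KO, so that KO 2 and KO 3 were high for the interval as for the members. In the Pkd2 model at P7 the sum was 3277, 3902 and 4408 CPM in WT and 10553, 5538 and 9342 CPM in KO. All KO libraries were above WT. Of the 89 interval miRNAs tested, 42 rose and none fell, but 1 rose when libraries were scaled by their totals alone. Of the 3 members, 0 were called there. Of those 3 KO libraries, KO 1 had the highest sum and the lowest miR-7a-5p level, 4.53 CPM. In WT, 30 of 82 interval miRNAs tested fell from P1 to P7 in the Pkd1 model with none rising, and 71 of 89 fell with 1 rising in the Pkd2 model. The numbers that fell were 60 and 82 with library totals alone. The part of the interval miRNAs in the members' values was not tested.

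**Figure D5:**
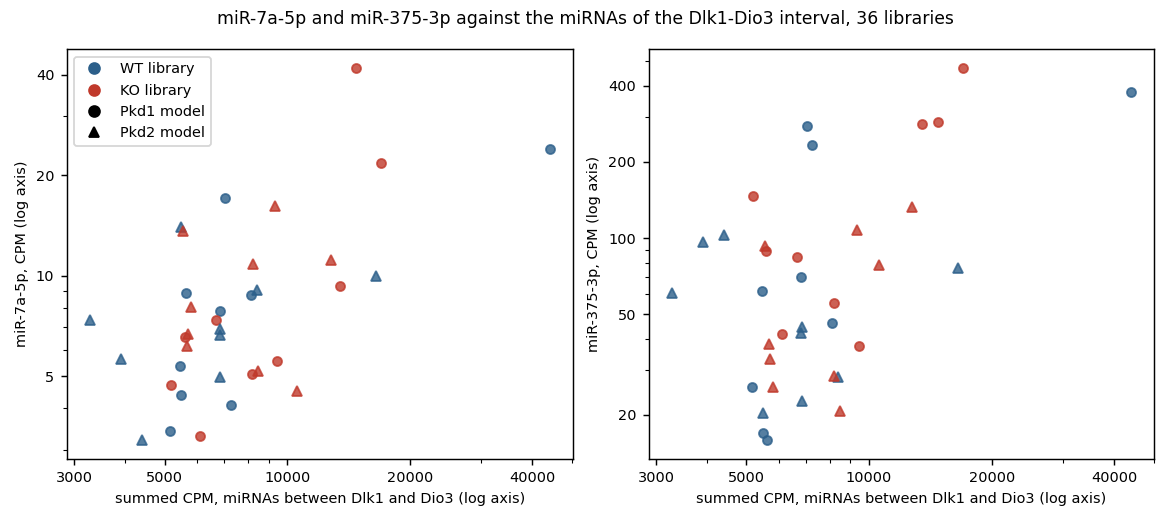
CPM of miR-7a-5p (left) and miR-375-3p (right) against the summed CPM of the miRNAs between Dlk1 and Dio3 in each of the 36 libraries, on log axes, blue for WT, red for KO, circles for the Pkd1 model and triangles for the Pkd2 model. The library at the far right is Pkd1 P1 WT 1 with 44091 CPM, and Pkd1 P3 KO 2 has the highest miR-7a-5p level, 41.9 CPM, at a sum of 14760 CPM.

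Related miRNAs were called in some comparisons of age and of genotype. No let-7 family member was called in any KO against WT comparison by edgeR, and the family's median log2 fold change was -0.04 at P3 of the Pkd1 model, beside 0.02 over all miRNAs tested. From P1 to P7 in WT, let-7b-5p rose by 0.63 (SE 0.17, adjusted p = 0.0213) in the Pkd1 model and by 0.66 (SE 0.17, adjusted p = 0.0088) in the Pkd2 model on the log2 scale, and miR-98-5p fell by 0.84 (SE 0.29, adjusted p = 0.0495) in the Pkd1 model, among 10 family members tested. With library totals alone none of these 3 passed, and let-7b-5p in the Pkd2 model was at -0.04. Of the 5 islet and neuroendocrine companions, 1 passed in any comparison, miR-212-3p, which fell by 0.83 (SE 0.22, adjusted p = 0.0089) from P1 to P7 in Pkd2 WT. Of the 17 miRNAs of the testis-expressed X-linked cluster, 4 were tested for Pkd1 and 5 for Pkd2. miR-201-5p and miR-547-3p rose from P1 to P7 in WT of both models, by 2.99 and 3.39 on the log2 scale in the Pkd1 model and by 2.26 and 2.77 in the Pkd2 model, and none fell. These 4 differences also passed with library totals alone. Of the kidney markers, miR-192-5p, miR-194-5p and miR-204-5p rose from P1 to P7 in WT of both models. With library totals alone these rises kept their direction, but none passed. The same 3 kidney markers fell in KO at P7 of the Pkd2 model, by 1.13, 0.95 and 0.92 on the log2 scale. In that comparison 2 of the 5 collecting duct and epithelial markers tested, miR-141-3p and miR-200c-3p, rose by 0.82 and 0.87. The median log2 fold change of the 5 markers was -0.12, against 0.02 over all miRNAs tested, and 0 were called lower. The KO changes of miR-192-5p, miR-194-5p, miR-204-5p, miR-141-3p and miR-200c-3p kept their direction with library totals alone, but none passed.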

How the data were processed

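Raw read counts per mature miRNA, deposited by the authors for 36 libraries, were analysed. According to the study's methods and the labels, total RNA of whole kidneys was sequenced, adaptors were removed and reads were mapped with miRDeep2 to mm10 and to the miRBase release named there. The labels' processing notes also name CASAVA 1.8.2 and HTSeq. The miRDeep2 version and the mismatch settings are not given in the sources used here. The table held 2061 rows for 1915 mature miRNAs. Where a miRNA was listed under several hairpins, the row with the most reads was kept.

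For each model, a miRNA was kept if 3 or more of the 18 libraries had 10 or more counts of it (706 in Pkd1, 746 in Pkd2), scaled by TMM and fitted with edgeR 4.0.16 (R 4.3.3, quasi-likelihood F-test, Benjamini-Hochberg adjustment). All 36 libraries were used for the difference between models and for CPM. A difference was called at an adjusted p under 0.05. Log2 CPM used a prior count of 2. Shares were compared by exact two-sided permutation tests. Alternatives were RLE size factors, library totals alone, no filter, DESeq2 1.42.0, the compared libraries alone, a replicate block, the mean over hairpin rows and leaving out each library. The fit was tested on simulated data. Named miRNAs were the members, the opposite arms of their hairpins, the 3 miRNAs with the highest Spearman's rho for each member, and up to 4 examples of each list. The members and lists were chosen with earlier results of these data known. Sequences were matched by name in the RefSeq table for 4 of the 5 members, all but miR-375-3p.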

Additional observations from a re-analysis of the deposited data

How the results depend on the processing

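The number of members called was unchanged from 0 under every alternative in 8 of the 11 comparisons. It became 2 (miR-375-3p and miR-202-5p) under DESeq2 in the Pkd1 model at P3, ranged from 0 to 1 when single libraries were left out there (miR-375-3p, log2 fold change 4.26, adjusted p = 0.0473, without KO 1) and in the Pkd2 model at P7 (miR-7a-5p without KO 1), and became 1 (miR-7a-5p) with library totals alone for WT P7 against P1 in the Pkd2 model. Directions reversed as follows on the log2 scale, none past the threshold. With library totals alone, miR-375-3p was -0.52 for WT P7 against P1 (Pkd1), and miR-7a-5p was 0.13 and 0.11 for KO against WT at P1 and P3 (Pkd2). The replicate block gave 0.54 for miR-7b-5p in WT P7 against P1 (Pkd1) and changed no call of a member. Replicate numbers were not shown to pair the libraries. The deviations of same-numbered KO and WT libraries had r over 0.1 in 7 of 18 pairs (-0.65 to 0.56), and 8 of the 18 KO libraries matched their own number best. With 3 libraries a group these values cannot settle whether the libraries were paired. The block moved no count of calls over all miRNAs by more than 1.5 times except from 4 to 2 for the KO effect at P7 less P1 in the Pkd2 model.

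Leaving out single libraries turned the sign within these ranges. For KO against WT in the Pkd1 model, miR-375-3p ranged from -1.78 to 1.18, miR-7b-5p from -3.30 to 7.20 and miR-202-5p from -8.47 to 0.13 at P1, and miR-7a-5p from -0.85 to 0.46 at P7. For KO against WT in the Pkd2 model, miR-375-3p ranged from -0.83 to 1.27 at P1, -0.39 to 0.058 at P3 and -0.046 to 0.28 at P7, and miR-7a-5p from -0.34 to 0.18 at P1 and -0.43 to 0.38 at P3. For WT P7 against P1 in the Pkd1 model, miR-375-3p ranged from -0.15 to 1.76, miR-7a-5p from -1.42 to 0.15, miR-7b-5p from -2.001 to 7.69 and miR-202-5p from -2.50 to 5.16. For the KO effect at P7 less P1, miR-375-3p ranged from -1.95 to 1.02, miR-7a-5p from -0.15 to 1.42 and miR-202-5p from -4.82 to 3.79 (Pkd1), and miR-375-3p from -1.10 to 0.99 (Pkd2). The 6 miR-202-5p libraries were also left out together. They were chosen after seeing the data by the reads of a member, so no conclusion is drawn from the values. In the Pkd1 model miR-375-3p became 1.11 at P1 and 0.73 at P7, and miR-7a-5p -0.81 at P3 and 0.17 at P7. In the Pkd2 model miR-375-3p became -0.83 at P1 and 0.99 for P7 less P1. For Pkd1 less Pkd2, miR-375-3p became 0.55. The causes were not tested. Over all miRNAs, calls in the Pkd2 model at P7 went from 94 (67 higher, 27 lower) to 7 (all higher) with library totals alone, 57 with the compared libraries alone and 157 with DESeq2. Leaving out single libraries gave 4 (KO 3), 11 (WT 2 or WT 3), 52 (WT 1), 115 (KO 1) and 142 (KO 2) calls there. At P3 of the Pkd1 model calls went from 0 to 4 with DESeq2, 7 without KO 1 and 3 without WT 3. With library totals alone the calls of WT P7 against P1 that were higher went from 73 of 152 to 4 of 136 (Pkd1) and from 85 of 211 to 6 of 222 (Pkd2). With 3 libraries a group and reads at or under the floor in most libraries, miR-7b-5p, miR-202-5p and miR-202-3p could not be compared between most groups.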

Other observations

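The opposite arms of Mir375 and Mir7b were scarce. miR-375-5p had 8 reads in all 36 libraries, at most 3 in any of them, beside 87565 reads of miR-375-3p. miR-7b-3p had 11 reads in all, 6 of them in Pkd1 P3 KO 3, the library with 226 miR-7b-5p reads.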
